A study of Homo sapiens with 9 samples.

Results

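The WNT system of kidney cells was followed through 43 genes: 19 WNT ligands, the ligand-secretion genes PORCN and WLS, 10 Frizzled receptors, the co-receptors LRP5, LRP6, ROR1, ROR2 and RYK, the secreted inhibitors DKK1, DKK3 and SFRP1, and the feedback and R-spondin genes AXIN2, ZNRF3, RNF43 and LGR4. They were chosen by gene symbol, antisense genes excluded, from a table of read counts for 28395 genes. The study sequenced polyadenylated RNA of 3 human kidney cell lines, with 3 libraries a line, to set their transcriptomes beside their metabolism. HK2 is an immortalised line of proximal tubule epithelium, labelled parental. 786-O is a line from a primary clear cell renal cell carcinoma (ccRCC), and 786-M1A is its derivative, labelled metastatic and selected for growth after spread in mice. No line was treated, and all were kept long term in Plasmax, a medium with the nutrient composition of human serum. Each condition is a single line, so a difference between lines cannot be told apart from the particular history of that line. The study calls its 3 RNA replicates of a line independent cultures, a term it uses for replicate wells or dishes, so that the p-values measure the spread between dishes of 1 line.

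WNT proteins are secreted, lipid-modified signals. PORCN attaches the lipid in the endoplasmic reticulum, and WLS carries the finished ligand to the cell surface. At the receiving cell a WNT engages a Frizzled receptor together with LRP5 or LRP6, which stabilises beta-catenin and switches on genes through TCF/LEF factors, or together with ROR1, ROR2 or RYK, which acts on cell polarity and movement without beta-catenin. DKK1 blocks LRP5 and LRP6, SFRP1 binds WNTs directly, AXIN2 is a feedback target of beta-catenin, and ZNRF3 and RNF43 remove Frizzled from the membrane unless R-spondin holds them off through LGR4. In the kidney, WNT signals drive nephron formation, and they become active again after injury.

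Total counts per library ranged from 30212291 to 45362428. Levels are given as CPM, counts scaled by the TMM method to a library of 1000000 reads, and 3 counts in a library, the limit that a count of 0 allows, corresponded to 0.0647 to 0.0964 CPM. Such limits and the intervals below cover counting error only. All 9 libraries correlated best with another library of their own line, with r of at least 0.9973 within lines. Of 14 proximal tubule markers, 5 in HK2 and 7 in each of 786-O and 786-M1A were at 1 CPM or more. The defining genes LRP2, SLC22A6 and SLC22A8 had no count in any library, whereas at least 7 of 9 renal epithelial lineage markers were at 1 CPM or more in every line. The ccRCC marker CA9 was at or near 0 throughout, while the summed level of 9 ccRCC markers was 388 to 404 CPM in HK2, 1690 to 1860 CPM for 786-O and 2460 to 2520 CPM for 786-M1A. This sum does not hold for each gene. SLC2A1 was at 194, 810 and 1060 CPM in that order, and TGFA, VEGFA, CCND1 and EGLN3 were also higher in the cancer lines. PLIN2 was lower in them, at 55.8, 38.7 and 45.1 CPM, and ANGPTL4 differed little, at 2.58, 3.12 and 3.25 CPM. The 8 blood cell markers summed to 60.6 to 64.4 CPM in HK2, 33.4 to 35.3 CPM for 786-O and 38.0 to 42.2 CPM for 786-M1A. Of these, CD68 (50.9, 27.0 and 36.0 CPM in that order) and CSF1R (11.5, 7.24 and 4.19 CPM) were the 2 at 1 CPM or more, and the defining genes PTPRC, CD3E and HBB had no count. The 8 endothelial markers summed to 0.186 to 5.18 CPM. The 10 fibroblast markers summed to 79.1 to 88.4 CPM in HK2 against 285 to 354 CPM in 786-O and 307 to 311 CPM in 786-M1A. The high sums of the cancer lines rest on different genes. COL1A1 was at 53.6, 291 and 16.5 CPM and PDGFRB at 4.98, 2.59 and 282 CPM in HK2, 786-O and 786-M1A, while LUM fell from 22.5 to 14.6 and 5.47 CPM. The part of these markers in the results was not tested.

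Testing was limited to genes averaging 50 counts or more across the 9 libraries, a condition met by 25 of the 43 members. The other 18 fell under this filter and are given by their counts. Of these, 11 entered an alternative fit with no filter, which called WNT10B lower in 786-M1A than in either other line. It also called FZD9, RNF43 and WNT9A lower in both cancer lines than in HK2. Only HK2 libraries held more than 3 counts of FZD9, RNF43 and WNT9A, and every 786-M1A library was under 3 counts of WNT10B. All of these genes are therefore given by counts and not by a p. A member counted as higher or lower when edgeR's quasi-likelihood fit gave it an adjusted p, corrected over all 12695 genes tested, under 0.05. In 786-O against HK2, 12 members were higher and 10 lower, where 41.6% of all tested genes were higher and 42.6% lower. In 786-M1A against HK2, the same numbers of members, 12 higher and 10 lower, stood against 41.6% and 43.3% of all tested genes. In 786-M1A against 786-O, 7 were higher and 11 lower, against 27.9% and 28% of all tested genes. The lines thus differed at most expressed genes, and a call alone set no member apart, so that the size of each difference matters more than its p.

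At 2-fold or more, 7 members were higher and 6 lower in 786-O than in HK2, where 9.18% and 13.1% of all tested genes were. Against HK2, 786-M1A had 6 members higher and 8 lower by 2-fold or more, where 10.4% and 15% of all tested genes were. Between 786-M1A and 786-O, 2 members were higher and 3 lower by 2-fold or more, beside 2.03% and 4.55% of all tested genes. The median log2 difference over the 25 tested members was 0.18 in 786-O against HK2, 0.11 in 786-M1A against HK2 and -0.19 in 786-M1A against 786-O, and over all tested genes it was -0.01, -0.02 and 0.00. DKK1 and WNT2B passed the filter only through HK2, averaging 0.167 and 10 counts over the other libraries, and WLS and ROR2 only through the 2 lines that express them, so that their differences from the lines without counts are given by counts and not by a p. DKK1 was at or under the limit of 3 counts in both cancer lines. The member counts and medians above include DKK1, WNT2B, WLS and ROR2. Against HK2, DKK1, WNT2B and WLS are among the members lower by 2-fold or more in each cancer line, and ROR2 is among those higher. WLS is also among the 3 lower by 2-fold or more in 786-M1A than in 786-O. With at least 10 counts asked in every library, which drops DKK1, WNT2B, WLS and ROR2, 18, 18 and 16 members were called in the 3 comparisons. Of the 12732 genes tested in this way, 10384, 10456 and 6915 were called. The 3 comparisons share lines, each line entering 2 of them, and are therefore not independent.

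**Figure D1:**
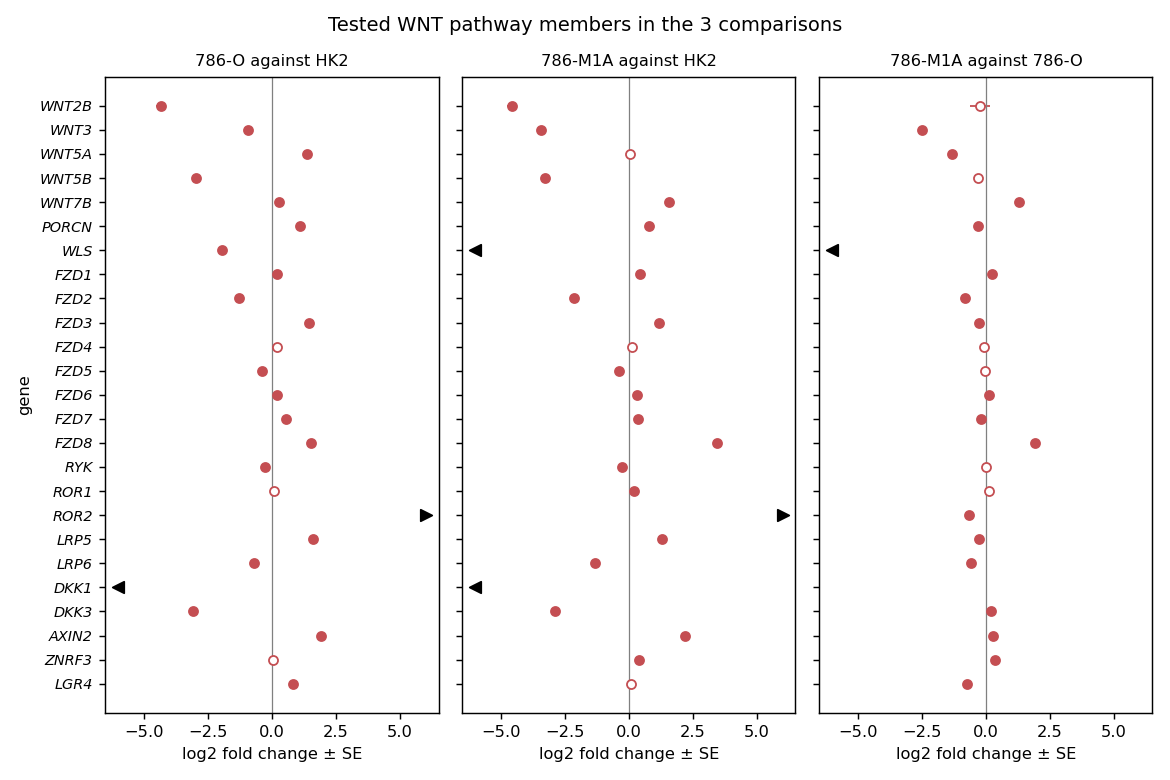
Log2 fold change with its standard error (horizontal axis) of the 25 tested members (rows) in the 3 comparisons. Filled points passed edgeR's adjusted p of 0.05, open points did not, and black arrowheads at the edge mark differences against a line with no more than 1 count over its 3 libraries, for which no fitted value is drawn. WLS, ROR2 and DKK1 carry the arrowheads, and DKK1 has no value between the cancer lines. WNT2B is drawn filled against HK2, although it passed the filter only through that line.

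The members at the arrowheads were counted in some lines and nearly or wholly uncounted in others, and with them FZD9, which averaged fewer counts than the filter asked. The bases before a RefSeq start are printed for these 4 genes, from build GRCh38.p14. For ROR2 (chr9:91950229-91950478, minus strand) and FZD9 (chr7:73433528-73433777, plus strand) the full 250 bases are shown. For WLS (chr1:68232546-68232659, minus strand) a stretch of 114 bases clear of the annotated exons of that gene is shown. The WLS stretch lies inside the span of the gene in the GENCODE annotation, which begins at chr1:68233120 on that strand. Capitals mark CG dinucleotides in these. For DKK1 (chr10:52314031-52314280, plus strand) capitals mark a match to the TCF/LEF motif, searched as CTTTGAT or CTTTGAA on both strands.
WLS: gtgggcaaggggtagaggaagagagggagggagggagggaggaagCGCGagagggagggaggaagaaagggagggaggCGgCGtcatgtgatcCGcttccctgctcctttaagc
ROR2: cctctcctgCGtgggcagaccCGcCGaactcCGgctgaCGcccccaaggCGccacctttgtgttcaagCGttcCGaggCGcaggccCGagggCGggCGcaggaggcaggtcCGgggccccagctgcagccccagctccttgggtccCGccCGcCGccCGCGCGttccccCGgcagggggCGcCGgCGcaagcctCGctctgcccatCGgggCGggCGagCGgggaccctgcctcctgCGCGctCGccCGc
FZD9: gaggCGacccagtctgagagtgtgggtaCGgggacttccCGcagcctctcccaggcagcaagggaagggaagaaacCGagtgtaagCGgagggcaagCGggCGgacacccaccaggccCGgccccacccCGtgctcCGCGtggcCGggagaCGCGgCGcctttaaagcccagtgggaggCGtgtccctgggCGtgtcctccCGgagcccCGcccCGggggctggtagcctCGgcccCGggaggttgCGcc
DKK1: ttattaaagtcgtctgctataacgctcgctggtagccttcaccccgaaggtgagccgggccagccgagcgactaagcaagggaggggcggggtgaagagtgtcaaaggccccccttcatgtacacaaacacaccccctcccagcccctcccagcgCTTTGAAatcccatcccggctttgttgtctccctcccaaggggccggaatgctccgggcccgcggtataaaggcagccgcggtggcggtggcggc

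In windows of 250 bases, ROR2 held 32 CG dinucleotides, FZD9 23 and DKK1 18, which placed them at percentiles 91.9, 76.3 and 65.4 among 35116 windows of the RefSeq table, with a median of 11. WLS has 2 overlapping windows there, with 14 and 10 CG dinucleotides at percentiles 57.1 and 49.7, and the printed stretch comes from the first. The median was 20 CG dinucleotides in windows of tested genes and 24 in windows of members, so these percentiles hold for all windows only. A window was at hand for 30 members. The TCF/LEF motif was found in 2.78% of their 36 windows, which is the DKK1 match alone. It was found in 3.75% of windows of tested genes and in 5.94% of all windows. These matches describe letters and say nothing of binding. AXIN2, DKK3, FZD10, FZD2, FZD3, FZD6, FZD7, LRP6, SFRP1, WNT10B, WNT11, WNT7B and ZNRF3 had no window in the table.

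WLS, the carrier without which WNT proteins are retained inside the producing cell, was counted 2955, 3763 and 4075 times in the HK2 libraries, 1055, 868 and 1037 times in the 786-O libraries and 0 times in each of the 3 786-M1A libraries. The lines did not overlap. Its level was 92.1 ± 3.68 CPM in HK2 (mean ± SD, n = 3) and 23.8 ± 0.72 CPM in 786-O, a 3.87-fold lower level in 786-O (log2 fold change -1.95 ± 0.049 SE, edgeR adjusted p = 2.85e-18). Set against the limit of 3 counts per library, WLS was at least 1150-fold lower in 786-M1A than in HK2 and at least 297-fold lower than in 786-O.

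WLS lies at chr1:68098473-68233120 on the minus strand of GRCh38 (GENCODE annotation). The nearest expressed protein-coding genes on either side were counted in all 3 lines, beyond DIRAS3 and RPE65, which did not exceed 4 counts in any library. GNG12, on the side of the lower coordinates, was at 526 ± 13.6 CPM in HK2, 459 ± 7.27 CPM for 786-O and 478 ± 12.6 CPM for 786-M1A. DEPDC1, on the other side, was at 116 ± 1.75, 123 ± 2.36 and 118 ± 3.14 CPM in the same order. The absence of counts in 786-M1A was thus not shared by these neighbours, which were picked by position after the WLS values were known. The antisense gene GNG12-AS1, which overlaps WLS, was at 0.414 CPM in HK2, 0.135 CPM for 786-O and 0.0965 CPM for 786-M1A. Its counts are uncertain, since the use of strand in the counting is not given.

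PORCN, the acyltransferase that lipid-modifies WNTs, went the other way from HK2. It was at 28.0, 25.5 and 25.5 CPM in the HK2 libraries, 54.7, 54.2 and 57.5 CPM in 786-O and 46.2, 43.9 and 44.7 CPM in 786-M1A. All 3 lines were separate, with 786-O highest. It was 2.11-fold higher in 786-O than in HK2 (log2 fold change 1.08 ± 0.049, adjusted p = 5.78e-15) and 1.71-fold higher in 786-M1A than in HK2 (0.77 ± 0.049, adjusted p = 2.63e-12), and 786-M1A was below 786-O by a log2 difference of -0.31 ± 0.046 (adjusted p = 8.98e-06). Per kilobase of transcript, the ratio of PORCN to WLS was 0.416 ± 0.0169 in HK2 and 3.4 ± 0.041 in 786-O, and it has no finite value in 786-M1A.

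**Figure D2:**
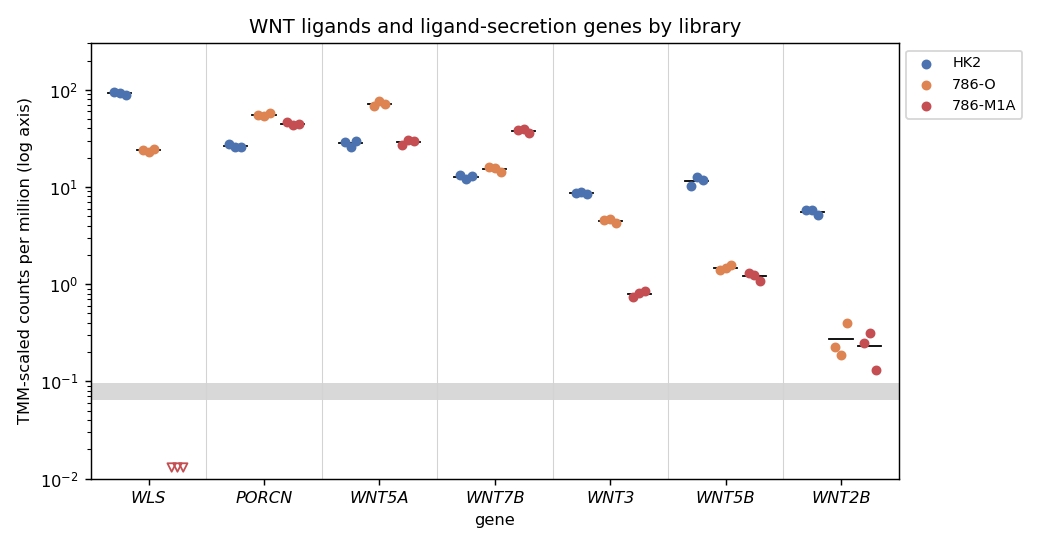
Level of WLS, PORCN and the 5 tested WNT ligands in each library (vertical axis, CPM on a log scale; points are libraries, black bars are line means). The grey band is the level of 3 counts in a library, and open triangles at the bottom are libraries with no count, which here are the 3 786-M1A libraries for WLS.

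Of the 19 ligands, 5 passed the filter, namely WNT5A, WNT7B, WNT3, WNT5B and WNT2B. WNT5A, the main ligand of the branch without beta-catenin and a partner of ROR2, was at 29.0, 25.6 and 29.6 CPM in HK2, 68.1, 76.0 and 71.2 CPM in 786-O and 26.8, 30.3 and 29.8 CPM in 786-M1A. The 786-O libraries stood above both other lines, which overlapped each other. WNT5A was 2.55-fold higher in 786-O than in HK2 (log2 fold change 1.35 ± 0.059, adjusted p = 1.8e-14) and 2.48-fold lower in 786-M1A than in 786-O (-1.31 ± 0.059, adjusted p = 2.53e-13). The log2 difference of 786-M1A from HK2 was 0.04 ± 0.063 (adjusted p = 0.513), and its sign turned with the scaling.

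WNT7B, which signals through beta-catenin and patterns the renal medulla, was at 13.2, 12.2 and 12.9 CPM in HK2, 16.2, 15.7 and 14.2 CPM in 786-O and 38.6, 39.2 and 36.2 CPM in 786-M1A. Every 786-M1A library was above every library of the other lines. The log2 fold change was 0.27 ± 0.065 in 786-O against HK2 (adjusted p = 0.000678), 1.57 ± 0.06 in 786-M1A against HK2 (adjusted p = 2.38e-16) and 1.3 ± 0.058 in 786-M1A against 786-O (adjusted p = 3.87e-14).

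WNT3, another activator of beta-catenin signalling, descended over the lines, with 8.74, 8.85 and 8.44 CPM in HK2, 4.6, 4.64 and 4.29 CPM in 786-O and 0.746, 0.807 and 0.845 CPM in 786-M1A. No libraries of different lines overlapped. It was 1.92-fold lower in 786-O than in HK2 (log2 fold change -0.94 ± 0.081, adjusted p = 4.35e-10) and 5.62-fold lower again in 786-M1A than in 786-O (-2.49 ± 0.13, adjusted p = 4.86e-13).

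WNT5B, the close relative of WNT5A, and WNT2B, a ligand of kidney and gut mesenchyme, were highest in HK2. WNT5B was at 10.2, 12.8 and 11.7 CPM in HK2, 1.4, 1.46 and 1.58 CPM in 786-O and 1.3, 1.25 and 1.08 CPM in 786-M1A. WNT2B was counted 179, 232 and 238 times in HK2, 10, 7 and 17 times in 786-O and 9, 12 and 5 times in 786-M1A. WNT5B was lower in each cancer line than in HK2, by log2 differences of -2.97 ± 0.11 (adjusted p = 2.3e-16) in 786-O and -3.26 ± 0.12 (adjusted p = 1.19e-16) in 786-M1A. For WNT2B, which passed the filter only through HK2, the same differences of -4.32 ± 0.19 and -4.56 ± 0.2 are given with no p, and no HK2 library overlapped with those of the cancer lines. Between the cancer lines neither difference passed the test, at -0.29 ± 0.17 for WNT5B (adjusted p = 0.162) and -0.24 ± 0.39 for WNT2B (adjusted p = 0.631). WNT2B overlaps ST7L on the opposite strand, which was at 15.1 to 21.4 CPM in the line means.

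The other 14 ligands fell under the filter. WNT1 and WNT3A, the classical activators of beta-catenin signalling, had no count in any of the 9 libraries, and neither had WNT2, WNT7A and WNT8A. WNT9A was counted 7, 14 and 17 times in HK2, 0, 0 and 1 time in 786-O and never in 786-M1A, a ratio of HK2 to 786-O of 40.1 (exact binomial 95% interval 6.78 to 1630) and a level at least 3.91-fold higher in HK2 than in 786-M1A. Since it was above 3 counts in HK2 libraries alone, WNT9A is given with no p. WNT10B was counted 2, 6 and 8 times in HK2, 11, 3 and 7 times in 786-O and 1, 1 and 2 times in 786-M1A. As every 786-M1A library was under 3 counts, WNT10B is also given with no p. WNT4 and WNT16 reached no more than 6 counts in any library and WNT10A no more than 3. WNT6, WNT8B, WNT9B and WNT11 did not exceed 2 counts in any library. WNT4, WNT9B and WNT11, which act in nephron formation and ureteric branching, were thus at or near the limit of detection at this depth.

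To compare ligands with each other, CPM were divided by the length of the canonical transcript in kilobases (RPKM). The summed ligand level moved little, from 16.6 ± 0.35 RPKM in HK2 to 18.4 ± 0.718 RPKM in 786-O and 15.5 ± 0.472 RPKM in 786-M1A, while its make-up shifted. In HK2 it was spread over WNT5B (31.2% ± 3.25), WNT5A (29.0% ± 2.31), WNT7B (19.5% ± 1.07) and WNT3 (15.9% ± 0.65), and the order of WNT5B and WNT5A lay within their spread and turned when lengths were taken over all annotated exons. In 786-O, WNT5A took 66.8% ± 1.68 of the sum and WNT7B 21.2% ± 1.5. In 786-M1A the order was inverted, with WNT7B at 62.2% ± 1.6 and WNT5A at 32.1% ± 1.92. With exon lengths, WNT5A took 70.4% in 786-O and WNT7B 59.0% in 786-M1A. Within a library, the ratio of WNT7B to WNT5A per length was 0.645 to 0.703 in HK2, 0.294 to 0.352 for 786-O and 1.8 to 2.13 for 786-M1A, with no overlap between lines.

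**Figure D3:**
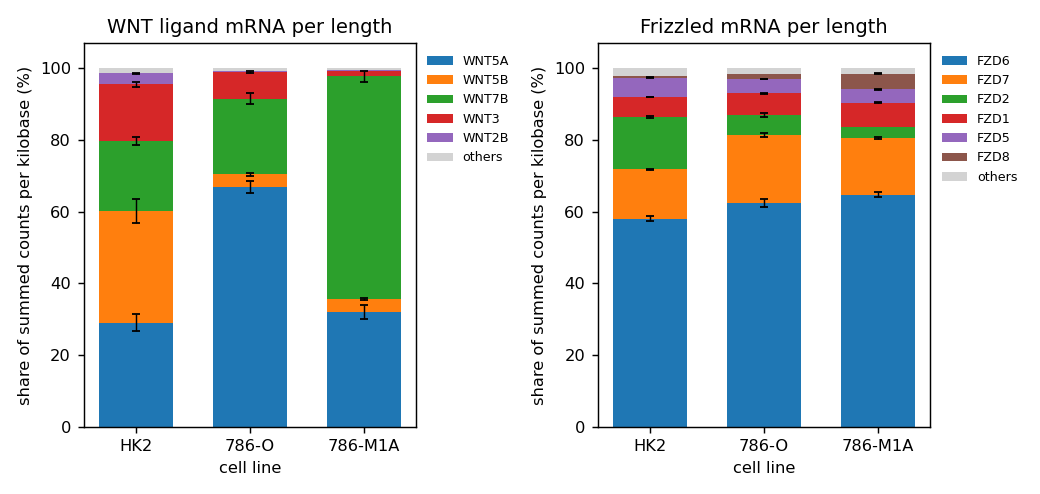
Share of each WNT ligand (left) and each Frizzled receptor (right) in the summed counts per kilobase of its family, in percent, as stacked mean bars for the 3 lines; the error bars are the SD of the segment they close, over 3 libraries, for segments above 3%. WNT5A fills 66.8% of the 786-O ligand bar and WNT7B 62.2% of the 786-M1A bar, whereas FZD6 fills 58.0% to 64.8% of every Frizzled bar.

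The Frizzled family had a single dominant member in all 3 lines. FZD6, a receptor known from hair and cell polarity that does not readily activate beta-catenin, was at 193, 191 and 189 CPM in HK2, 214, 215 and 223 CPM in 786-O and 232, 239 and 241 CPM in 786-M1A. The lines were ordered without overlap. Its share of the summed Frizzled level per length was 58.0% ± 0.671, 62.5% ± 1.13 and 64.8% ± 0.695, and its log2 differences were small, 0.19 ± 0.035 in 786-O against HK2 (adjusted p = 4.03e-05), 0.31 ± 0.035 in 786-M1A against HK2 (adjusted p = 3.36e-08) and 0.12 ± 0.035 in 786-M1A against 786-O (adjusted p = 0.00484). The summed Frizzled level was 88.3 ± 0.872, 93.5 ± 0.984 and 98.2 ± 1.09 RPKM in HK2, 786-O and 786-M1A.

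Beneath FZD6 the receptors changed places. FZD8, a receptor for beta-catenin-activating WNTs, was at 1.57, 1.59 and 1.73 CPM in HK2, 4.84, 4.54 and 4.79 CPM in 786-O and 17.9, 17.4 and 17.6 CPM in 786-M1A. Each line stood clear of the next. It was 2.88-fold higher in 786-O than in HK2 (log2 fold change 1.53 ± 0.1, adjusted p = 9.33e-12), 10.7-fold higher in 786-M1A than in HK2 (3.42 ± 0.087, adjusted p = 1.61e-19) and 3.72-fold higher in 786-M1A than in 786-O (1.9 ± 0.071, adjusted p = 1.84e-15).

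FZD2 ran in the opposite direction, with 49.9, 47.5 and 49.0 CPM in HK2, 21.9, 19.4 and 18.1 CPM in 786-O and 12.0, 10.8 and 10.6 CPM in 786-M1A, again without overlap. It was 2.46-fold lower in 786-O than in HK2 (-1.3 ± 0.06, adjusted p = 8.64e-15) and 1.78-fold lower in 786-M1A than in 786-O (-0.83 ± 0.07, adjusted p = 1.73e-09). Per length, the ratio of FZD8 to FZD2 was 0.0312 ± 0.00174 in HK2, 0.224 ± 0.0212 for 786-O and 1.48 ± 0.0778 for 786-M1A, so that FZD8 passed FZD2 in 786-M1A.

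FZD3, a receptor of axon guidance and cell polarity, was at 4.05 ± 0.649 CPM in HK2, 11.1 ± 1.11 CPM for 786-O and 9.2 ± 0.544 CPM for 786-M1A. It was higher than in HK2 in both cancer lines, by log2 differences of 1.46 ± 0.1 (adjusted p = 2.5e-11) and 1.19 ± 0.11 (adjusted p = 1.23e-09). The lower level in 786-M1A than in 786-O, -0.27 ± 0.091 (adjusted p = 0.0167), lost its call when any of 3 single libraries was left out. Without 786-O replicate 1, 786-O replicate 2 or 786-M1A replicate 1, the difference was -0.22 with adjusted p of 0.0766, 0.0771 and 0.0591.

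The remaining tested receptors moved by less than 2-fold. FZD7, a relative of FZD1 and FZD2 often found on stem-like cells, was at 56.0 ± 1.19, 81.6 ± 2.83 and 71.4 ± 0.518 CPM in HK2, 786-O and 786-M1A, and FZD1 at 34.3 ± 0.365, 38.8 ± 0.465 and 46.0 ± 0.666 CPM. Both were higher in each cancer line than in HK2, FZD7 by 0.54 ± 0.041 and 0.35 ± 0.041 and FZD1 by 0.18 ± 0.043 and 0.42 ± 0.043 on the log2 scale, with adjusted p of 0.000692 or lower. In 786-M1A against 786-O they differed in opposite directions, FZD7 by -0.19 ± 0.04 (adjusted p = 0.000331) and FZD1 by 0.25 ± 0.042 (adjusted p = 3.6e-05). FZD1, FZD2 and FZD7 are similar in sequence, and how reads matching several of them were counted is not given in the sources used here.

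FZD5, the nearest relative of FZD8, did not follow it. It was at 33.6 ± 1.6 CPM in HK2, 26.1 ± 0.182 CPM for 786-O and 25.8 ± 1.27 CPM for 786-M1A, lower in each cancer line than in HK2 by log2 differences of -0.37 ± 0.051 (adjusted p = 1.01e-06) and -0.39 ± 0.052 (adjusted p = 5.22e-07). FZD4, the receptor that also binds Norrin, was at 4.96 ± 0.437, 5.59 ± 0.337 and 5.32 ± 0.585 CPM, and none of its 3 differences passed the test, with adjusted p between 0.0932 and 0.575. FZD4 overlaps PRSS23 on the opposite strand, which was far more abundant at 89.8 to 185 CPM in the line means. Whether the counting used strand is not given in the sources used here, so the FZD4 values are uncertain.

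FZD9, a receptor linked to neural and bone development, was counted 57, 75 and 106 times in HK2 and never in 786-O or 786-M1A. Its mean over the 9 libraries fell under the filter, and with counts in HK2 alone it is given with no p. Set against 3 counts per library, it was at least 27.4-fold higher in HK2 than in 786-O and at least 24.9-fold higher than in 786-M1A. The adjacent gene BAZ1B was at 263 ± 11.1 CPM in HK2, 344 ± 9.42 CPM for 786-O and 382 ± 20.6 CPM for 786-M1A, and FKBP6 and TRIM50, on the other side, did not exceed 2 counts in any library. FZD10, its closest relative in the family, had no count in any library.

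Among the co-receptors, ROR2 showed the widest contrast. This receptor tyrosine kinase for WNT5A was counted 0, 1 and 0 times in HK2, 1011, 800 and 967 times in 786-O and 511, 575 and 488 times in 786-M1A. The lines did not overlap. The ratio of 786-O to HK2 was 2630 (exact binomial 95% interval 472 to 104000) and that of 786-M1A to HK2 was 1650 (296 to 65200). In 786-M1A its level was 14 ± 1.05 CPM against 22.3 ± 0.907 CPM in 786-O, a log2 difference of -0.67 ± 0.067 (adjusted p = 2.42e-08). ROR2 lies at chr9:91563091-91950228 on the minus strand of GRCh38, and the nearest protein-coding genes on either side, NFIL3 and SPTLC1, were counted in every line. NFIL3 was at 20.8, 51.6 and 64.5 CPM and SPTLC1 at 118, 141 and 163 CPM in HK2, 786-O and 786-M1A. Beyond NFIL3, AUH was at 10.1, 12.0 and 14 CPM, and SYK, at 824 kb from ROR2, was at 0.173, 64.3 and 19.8 CPM, with the lines in the same order as for ROR2.

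ROR1, the other kinase of this pair, was at 35.4 ± 1.92, 37.3 ± 0.732 and 40.6 ± 2.83 CPM in HK2, 786-O and 786-M1A. The difference of 786-M1A from HK2 passed the test at 0.2 ± 0.054 (adjusted p = 0.00171), whereas those of 786-O from HK2 (0.08 ± 0.053, adjusted p = 0.188) and of 786-M1A from 786-O (0.12 ± 0.053, adjusted p = 0.054) did not. Per length, ROR2 reached 0.841 ± 0.0502 of the ROR1 level in 786-O and 0.486 ± 0.0311 in 786-M1A. RYK, a WNT-binding receptor without active kinase, was the most abundant co-receptor per length in each line at 33.6, 27.8 and 28.2 RPKM. It was lower in both cancer lines than in HK2, by -0.28 ± 0.041 (adjusted p = 2.06e-06) and -0.26 ± 0.041 (adjusted p = 5.94e-06).

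LRP5 and LRP6, the paired co-receptors of the beta-catenin branch, moved apart. LRP5 was at 35.1, 33.3 and 35.3 CPM in HK2, 110, 105 and 96.6 CPM in 786-O and 87.7, 86.8 and 81.9 CPM in 786-M1A. LRP6 was at 82.6, 72.4 and 80.9 CPM in HK2, 46.4, 50.8 and 46.5 CPM in 786-O and 28.4, 34.1 and 32.8 CPM in 786-M1A. For both genes the 3 lines were separate, with HK2 lowest for LRP5 and highest for LRP6.

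LRP5 was 3.01-fold higher in 786-O than in HK2 (log2 fold change 1.59 ± 0.05, adjusted p = 1.06e-17) and 2.47-fold higher in 786-M1A than in HK2 (1.3 ± 0.051, adjusted p = 3.5e-16). LRP6 was 1.64-fold lower in 786-O (-0.72 ± 0.063, adjusted p = 8.79e-09) and 2.48-fold lower in 786-M1A (-1.31 ± 0.065, adjusted p = 2.81e-12). In 786-M1A against 786-O both were lower, LRP5 by -0.28 ± 0.047 (adjusted p = 2.78e-05) and LRP6 by -0.59 ± 0.067 (adjusted p = 8.22e-07). Per length the ratio of LRP5 to LRP6 was 0.872 ± 0.0354 in HK2, 4.3 ± 0.348 for 786-O and 5.37 ± 0.651 for 786-M1A, so that LRP6 was the higher of the pair in HK2 and LRP5 in both cancer lines.

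**Figure D4:**
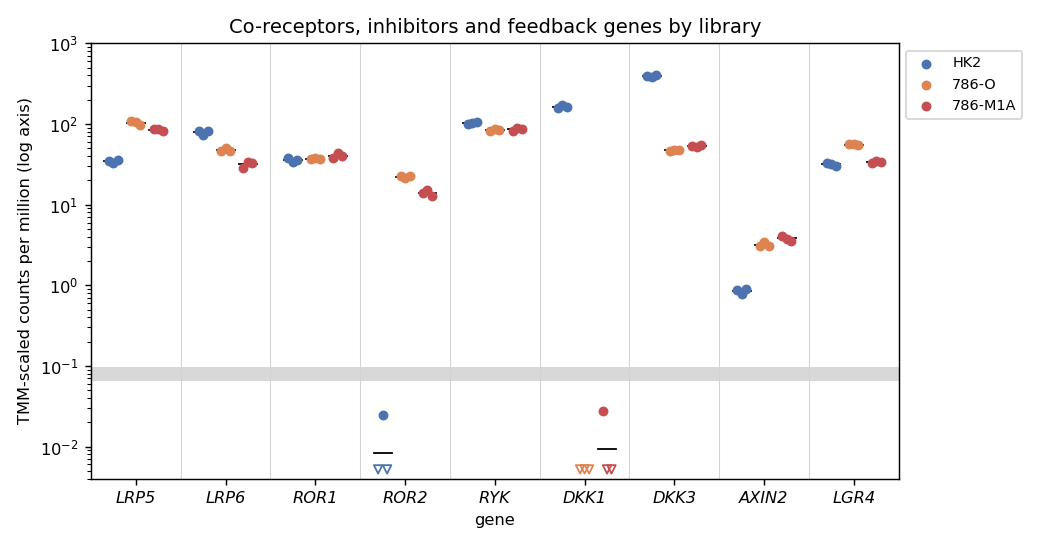
Level of the 5 co-receptors, the inhibitors DKK1 and DKK3, and AXIN2 and LGR4 in each library (vertical axis, CPM on a log scale; points are libraries, black bars are line means, the grey band is 3 counts in a library, open triangles have no count). ROR2 lies under the band in HK2 and DKK1 under it in both cancer lines, while LRP5 and LRP6 are inverted between HK2 and the cancer lines.

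Among the member inhibitors, DKK1 and DKK3 were far lower in the cancer lines than in HK2. DKK1, the antagonist of LRP5 and LRP6, was counted 4933, 6875 and 7552 times in HK2, never in 786-O, and 1, 0 and 0 times in 786-M1A. HK2 stood alone, at 164 ± 6.02 CPM. Set against 3 counts per library, DKK1 was at least 2260-fold lower in 786-O, and its ratio of HK2 to 786-M1A was 18500 (exact binomial 95% interval 3320 to 730000). DKK1 lies at chr10:52314281-52318042 on the plus strand of GRCh38. PRKG1-AS1, which overlaps it on the opposite strand, was at 1.52 CPM in HK2 and had no count in either cancer line. Since the use of strand in the counting is not given, the PRKG1-AS1 counts may hold reads of DKK1 and are uncertain. The nearest protein-coding gene, PRKG1, was at 0.335 CPM in HK2 and did not exceed 1 count in any cancer library. On the other side MBL2 had no count in HK2 and was at 0.547 CPM for 786-O and 0.283 CPM for 786-M1A. CSTF2T, an expressed gene at 615 kb, was at 55.1 ± 2.62 CPM in HK2, 46.3 ± 0.259 CPM for 786-O and 41.6 ± 0.822 CPM for 786-M1A.

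DKK3, a divergent Dickkopf protein that does not bind LRP6 like DKK1, was at 398, 386 and 402 CPM in HK2, 46.6, 47.4 and 47.2 CPM in 786-O and 53.9, 52.1 and 54.3 CPM in 786-M1A. It was the member with the highest CPM in HK2. The level was 8.4-fold lower in 786-O (log2 fold change -3.07 ± 0.039, adjusted p = 1.23e-24) and 7.41-fold lower in 786-M1A (-2.89 ± 0.038, adjusted p = 2.62e-24), with a small difference between the cancer lines, 0.18 ± 0.039 (adjusted p = 0.000447). DKK3 overlaps USP47 on the opposite strand, which was at 104 to 127 CPM in the line means, so a part of the DKK3 counts is uncertain. SFRP1, a decoy that binds WNTs, had no count in any of the 9 libraries.

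AXIN2, the scaffold protein whose gene is a general target of beta-catenin, was low in all lines, with 27, 31 and 42 counts in HK2, 136, 131 and 129 in 786-O and 148, 146 and 136 in 786-M1A. HK2 was separate from both cancer lines. It was 3.74-fold higher in 786-O than in HK2 (log2 fold change 1.9 ± 0.14, adjusted p = 5.16e-11) and 4.49-fold higher in 786-M1A than in HK2 (2.17 ± 0.14, adjusted p = 3.31e-12). The further difference between the cancer lines was 0.26 ± 0.11 (adjusted p = 0.0401). That call was lost under 7 of 14 other settings, with adjusted p from 0.028 to 0.143 over them. It was lost with DESeq2 (adjusted p = 0.128) and also when 786-O replicate 1 (0.24, adjusted p = 0.0998), 786-O replicate 3 (0.23, adjusted p = 0.118), 786-M1A replicate 1 (0.22, adjusted p = 0.143) or 786-M1A replicate 2 (0.27, adjusted p = 0.0741) was left out.

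ZNRF3, which clears Frizzled and LRP6 from the surface, was at 27.5 ± 1.2 CPM in HK2, 28.6 ± 0.355 CPM for 786-O and 36.1 ± 0.953 CPM for 786-M1A, and was higher in 786-M1A than in HK2 by 0.39 ± 0.048 (adjusted p = 1.54e-07) and than in 786-O by 0.34 ± 0.048 (adjusted p = 3.82e-06). RNF43, its partner enzyme, was counted 10, 13 and 19 times in HK2, 3, 3 and 0 times in 786-O and never in 786-M1A, under the filter and at least 4.38-fold higher in HK2 than in 786-M1A. As no cancer library exceeded 3 counts, RNF43 is given with no p, and no difference between the cancer lines is read. TSPOAP1-AS1, which overlaps RNF43 on the opposite strand, was at 1.45 CPM in HK2 and at 0.0392 and 0.0276 CPM in the cancer lines, so the RNF43 counts are uncertain. LGR4, the R-spondin receptor that restrains both enzymes, was at 33.1, 32.3 and 29.8 CPM in HK2, 56.1, 56.1 and 54.2 CPM in 786-O and 32.7, 34.7 and 33.8 CPM in 786-M1A. The 786-O libraries stood above the rest, by 0.81 ± 0.048 over HK2 (adjusted p = 7.13e-13), and 786-M1A was below 786-O by -0.72 ± 0.048 (adjusted p = 3.26e-11). Between 786-M1A and HK2 the LGR4 difference of 0.09 ± 0.05 did not pass the test (adjusted p = 0.0955).

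Libraries of a line varied little in these genes. Among members at 1 CPM or more, the median coefficient of variation was 4.34%, 3.47% and 4.34% in HK2, 786-O and 786-M1A, beside 4.18%, 3.73% and 4.48% for all tested genes at that level. FZD3 in HK2 was the most variable of these at 16.0%. In bulk RNA, a change in the number of cells that express a gene and a change in its level per cell cannot be told apart, which applies to every value above.

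The wider pathway was followed in 121 further genes of 7 lists, of which 87 were tested. In 786-O against HK2, 36 were higher and 41 lower, or 41.4% and 47.1% beside 41.6% and 42.6% of all tested genes. In 786-M1A against HK2 they were 35 and 43, or 40.2% and 49.4% beside 41.6% and 43.3%, and in 786-M1A against 786-O 23 and 29, or 26.4% and 33.3% beside 27.9% and 28%. At 2-fold or more the counts were 7 and 16, or 8.05% and 18.4% beside 9.18% and 13.1% of all tested genes, then 12 and 19, or 13.8% and 21.8% beside 10.4% and 15%, and 2 and 6, or 2.3% and 6.9% beside 2.03% and 4.55%, in the same order. Their median log2 differences were -0.09, -0.1 and -0.06. These shares and the list counts that follow are descriptions, and nothing particular to the pathway is read from them. FRAT1, TCF7L1, LEF1, KREMEN2, TRABD2A, NFATC1, SP5 and BMP4 passed the filter only through their highest line, so that their differences from that line are given with no p. The 23 tested genes of the destruction complex, which degrades beta-catenin, and its relay held 10 higher and 11 lower in 786-O than in HK2. These were 43.5% and 47.8% beside 41.6% and 42.6% of all tested genes, with none past 2-fold. In 786-M1A against HK2 10 were higher and 12 lower, or 43.5% and 52.2% beside 41.6% and 43.3%. Past 2-fold were 3 and 1, or 13% and 4.35% beside 10.4% and 15%.

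The TCF/LEF factors, through which beta-catenin acts on DNA, differed in composition. LEF1 was at 0.386, 0.843 and 0.626 CPM in HK2, 14.5, 14.2 and 14.5 CPM in 786-O and 0.138, 0.182 and 0.343 CPM in 786-M1A. It was high in 786-O alone, with log2 differences of 4.49 against HK2 and -5.99 in 786-M1A against 786-O, and no 786-O library overlapped with those of the other lines. TCF7 was at 13.4, 13.1 and 15.0 CPM in HK2, 9.82, 9.29 and 8.75 CPM in 786-O and 42.0, 39.4 and 40.6 CPM in 786-M1A. It was high in 786-M1A, by 1.55 over HK2 (adjusted p = 2.33e-16) and 2.13 over 786-O (adjusted p = 2.62e-17), and lower in 786-O than in HK2 by -0.58 (adjusted p = 8.76e-08).

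The other two factors were highest in HK2. TCF7L1, mostly a repressor, was at 5.98 ± 0.565 CPM in HK2, with 191 to 299 counts a library, at 0.169 ± 0.0623 CPM in 786-O, with 5 to 10 counts, and at 0.107 ± 0.106 CPM in 786-M1A, with 0 to 8 counts. TCF7L2, added to complete the family after its values were seen, was at 57.0 ± 1.72, 19.4 ± 0.709 and 11.5 ± 0.789 CPM, lower in 786-O by -1.55 (adjusted p = 2.48e-17) and in 786-M1A by -2.31 (adjusted p = 7.89e-20).

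**Figure D5:**
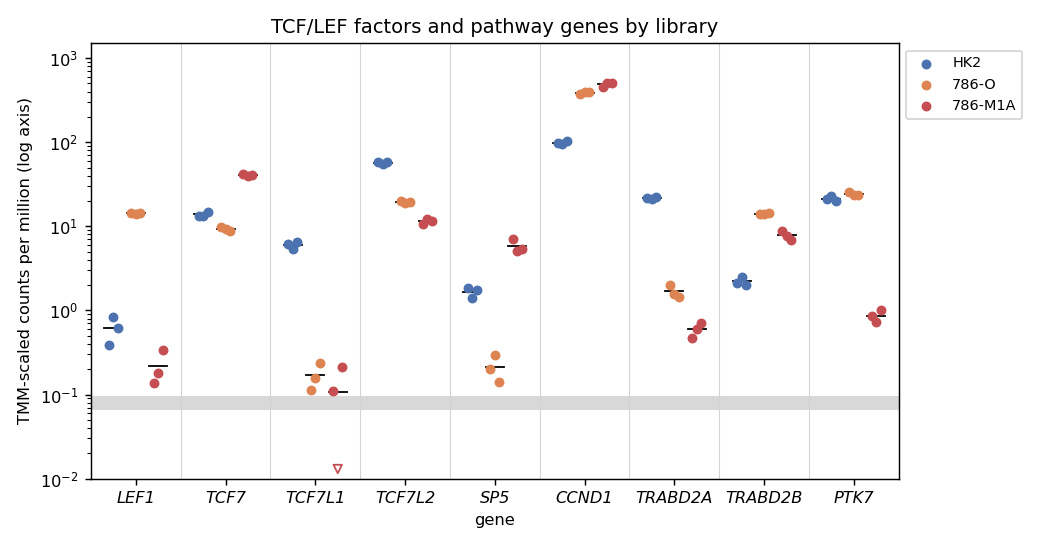
Level of the TCF/LEF factors, of the targets SP5 and CCND1, and of TRABD2A, TRABD2B and PTK7 in each library (vertical axis, CPM on a log scale; points are libraries, black bars are line means, the grey band is 3 counts in a library, the open triangle has no count). LEF1 stands out in 786-O at 14.2 to 14.5 CPM, TCF7 and SP5 in 786-M1A, and PTK7 drops in 786-M1A to 0.729 to 1.0 CPM.

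Of the 18 tested beta-catenin target genes, 6 were higher and 9 lower in 786-O than in HK2, or 33.3% and 50% beside 41.6% and 42.6% of all tested genes. In 786-M1A against HK2 they were 8 and 8, or 44.4% each beside 41.6% and 43.3%, and in 786-M1A against 786-O 8 and 4, or 44.4% and 22.2% beside 27.9% and 28%. SP5, a transcription factor gene switched on directly by beta-catenin, was at 1.66 ± 0.24 CPM in HK2, 0.212 ± 0.0756 CPM for 786-O and 5.86 ± 1.14 CPM for 786-M1A. It was thus lower in 786-O than in HK2 (log2 difference -2.97, adjusted p = 1.22e-08), unlike AXIN2, and the 786-M1A libraries lay above HK2 by 1.82 and above 786-O by 4.78 on the log2 scale, without overlap. CCND1, the cyclin that drives entry into the cell cycle and is also a target of other pathways, was at 99.0 ± 4.68, 389 ± 13.7 and 490 ± 32.2 CPM, higher in 786-O by 1.97 (adjusted p = 1.43e-18) and in 786-M1A by 2.3 (adjusted p = 1.11e-19). BMP4, a growth factor of kidney development, was at 6.85 ± 0.553 CPM in HK2 and at 0.0304 ± 0.0343 and 0.00868 ± 0.015 CPM in 786-O and 786-M1A. MYC and MMP7, on the same list, went the other way from CCND1. MYC was at 276 ± 11.2, 70.3 ± 2.19 and 60.6 ± 2.97 CPM in HK2, 786-O and 786-M1A, with log2 differences of -1.97 and -2.19 from HK2. MMP7 was at 121 ± 6.12, 17.8 ± 1.36 and 9.72 ± 0.785 CPM, with differences of -2.77 and -3.64.

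Among other secreted and membrane inhibitors, 4 of 16 genes were tested, and the pair TRABD2A and TRABD2B, proteases that inactivate WNT proteins, differed in opposite directions. TRABD2A was at 21.8 ± 0.504, 1.69 ± 0.301 and 0.594 ± 0.122 CPM in HK2, 786-O and 786-M1A, with log2 differences of -3.68 and -5.19 from HK2 and a lower level in 786-M1A than in 786-O, by -1.5 (adjusted p = 8.06e-07). TRABD2B was at 2.21 ± 0.238, 14.1 ± 0.221 and 7.82 ± 0.936 CPM, higher by 2.68 (adjusted p = 1.83e-16) and 1.82 (adjusted p = 8.37e-13) against HK2. Under the filter, SFRP2 was at 0.153, 1.13 and 0.0184 CPM and SFRP4 at 0.429, 0.99 and 0.304 CPM in HK2, 786-O and 786-M1A. Both were thus highest in 786-O, unlike DKK1 and DKK3. NOTUM, also under the filter, was highest in HK2, at 0.385, 0.0969 and 0.0898 CPM. ADGRA2, a co-receptor for WNT7 ligands in brain vessels, was at 11 ± 1.49, 3.67 ± 0.446 and 0.402 ± 0.1 CPM, and was lower in 786-M1A than in 786-O by -3.19 (adjusted p = 4.6e-11).

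In the beta-catenin-independent list, 16 of 21 genes were tested. Against HK2, 9 were higher and 6 lower in 786-O, or 56.2% and 37.5% beside 41.6% and 42.6% of all tested genes. In 786-M1A 7 were higher and 8 lower, or 43.8% and 50% beside 41.6% and 43.3%. PTK7, a pseudokinase co-receptor of planar polarity, was at 21.1, 22.8 and 19.9 CPM in HK2, 25.6, 23.8 and 23.7 CPM in 786-O and 0.857, 0.729 and 1.0 CPM in 786-M1A. The 786-M1A libraries were far below both other lines, by a log2 difference of -4.82 from 786-O (adjusted p = 2.26e-19). ANKRD6, the human counterpart of the fly polarity gene diego, was at 13.7 ± 0.177, 2.55 ± 0.307 and 0.133 ± 0.0429 CPM, lower in 786-M1A than in 786-O by -4.22 (adjusted p = 1.42e-12).

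The polarity cadherins CELSR1 and CELSR3 differed in opposite directions from HK2. CELSR1 was at 96.5 ± 8.34, 216 ± 13.0 and 292 ± 14.7 CPM, higher by 1.16 in 786-O (adjusted p = 6.85e-11) and 1.59 in 786-M1A (adjusted p = 1.11e-12), and CELSR3 was at 27.2 ± 1.65, 2.27 ± 0.169 and 2.78 ± 0.251 CPM, lower in 786-O by -3.58 (adjusted p = 6.07e-20). SCRIB, a scaffold of cell polarity, was at 90.6 ± 2.32 CPM in HK2 and 222 ± 14.1 CPM in 786-O, a log2 difference of 1.29 (adjusted p = 2.18e-14). NFATC1, a calcium-regulated transcription factor, was at 9.78 ± 0.431 CPM in HK2, and its ratio of HK2 to 786-O was 607 (exact binomial 95% interval 168 to 5020) and of HK2 to 786-M1A 1100 (197 to 43400).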

How the data were processed

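RNA was extracted from replicate dishes of HK2, 786-O and 786-M1A cells grown in Plasmax, and TruSeq Stranded mRNA libraries were sequenced on an Illumina NextSeq. The authors counted reads per gene with featureCounts of the Rsubread package on GRCh38 and deposited raw counts, unfiltered and not pooled. The annotation version and the use of strand are not given in the sources used here, so counts of genes with an antisense neighbour may hold reads of both. Groups were taken from the sample titles.

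NCBI gene IDs were matched to symbols with a RefSeq table, in which 27745 of 28395 IDs were found. Genes averaging 50 counts or more were fitted with edgeR 4.0.16 (TMM factors, robust quasi-likelihood, 1 coefficient per line, all 9 libraries), with Benjamini-Hochberg adjustment over 12695 genes. The biological coefficient of variation was 3.93%. CPM were divided by GENCODE 44 canonical transcript lengths for comparisons between genes. The smallest p of an exact permutation test of 3 against 3 libraries is 0.1, so none is quoted. Replicate pairs differed by more than counting noise, with chi-square per degree of freedom of 3.064 to 8.492, so each library was counted.

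Where a line had no count, folds were set against 3 counts per library, and with 1 to 3 counts a ratio with an exact binomial interval is given. Alternatives were DESeq2 1.42.0, RLE and upper-quartile factors, other filters, limma 3.58.1 on log2 counts (median-centred, as VSN was not at hand), fits of 2 lines, a replicate block and leaving out each library. Named are all 43 members and, per comparison, up to 5 pathway genes with the largest differences each way at 2-fold or more and no overlap of libraries. TCF7L2, SFRP2, SFRP4, NOTUM, MYC and MMP7 were added after their values were seen. Members and lists were chosen with earlier results of these data known.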

Additional observations from a re-analysis of the deposited data

How the results depend on the processing

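Member counts were 22, 22 and 18 in 786-O against HK2, 786-M1A against HK2 and 786-M1A against 786-O, and 18 to 25, 18 to 27 and 16 to 20 over 14 alternatives each. They came to 22 to 23, 22 to 23 and 16 to 18 when single libraries were left out. The 77, 78 and 52 calls among other pathway genes ranged over 72 to 92, 72 to 93 and 47 to 54. A filter of 10 counts in every library dropped DKK1, ROR2, WLS and WNT2B, since each is near 0 in some line. A call was lost under some alternative for FZD3 and AXIN2 in 786-M1A against 786-O alone, and uncalled differences of FZD4, ROR1 and LGR4 passed under some. Signs turned for uncalled differences. For WNT5A in 786-M1A against HK2, upper-quartile scaling gave -0.0036 and leaving out libraries -0.02 to 0.1. In 786-M1A against 786-O, leaving out libraries gave -0.52 to 0.16 for WNT2B, -0.16 to 0.0011 for FZD4, -0.05 to 0.02 for FZD5 and -0.0018 to 0.06 for RYK. The cause was not tested.

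Replicate numbers share no stated culture or day. Deviations of same-numbered libraries correlated at -0.167 to 0.215, and not every pair was above 0.1, although in 786-M1A against 786-O 6 of 6 libraries correlated best with their own number. With the replicate block the member counts were 22, 22 and 18, and those of other pathway genes 74, 77 and 52. Depth limits the ligands and receptors under 3 counts, and each line stands for itself.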
